A study of Mus musculus with 4 samples.

Results

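The genes described here are 9 early genes of T cell receptor signalling: the transcription factors Egr1, Egr2 and Egr3, the orphan nuclear receptors Nr4a1, Nr4a2 and Nr4a3, the transcription factors Myc and Irf4, and the surface receptor Cd69. They were taken with every probe set that the annotation of the mouse array maps to one of these symbols alone, which gave 19 probe sets of 45037 that are not controls, and 9 genes of 18193 with a symbol. The genes were chosen with the differences between knockout and wild type already known, so those differences are given as a description and without a test. All values come from sorted naive helper T cells, positive for CD4 and CD62L and negative for CD44, taken fresh from mice of 10 to 11 weeks. The 2 arrays labelled knockout came from mice with both alleles of the furin gene floxed and a Cre recombinase under the CD4 promoter (CD4-cre fur flox/flox), which deletes in T cells. The 2 arrays labelled wild type came from littermates with the same floxed alleles and no Cre (fur flox/flox), so both groups carry the floxed gene and Cre itself is not controlled for. The enzyme furin cleaves many precursor proteins to make them active.

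A T cell whose receptor meets antigen starts transcription of early genes within minutes, without new protein synthesis. Calcium signalling acts through NFAT and MEF2 on Nr4a genes, and MAP kinase signalling acts through SRF and its partners on Egr genes, so both families are widely used as readouts of receptor signalling, Nr4a1 as the basis of reporter mice. Myc drives the growth of activated cells, Irf4 is known to follow the strength of the receptor signal, and Cd69 is an early activation marker that holds cells in lymphoid tissue by blocking S1pr1.

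The array reads 1 MAS5 signal per probe set, a linear brightness scaled to a common level on each array. Differences are knockout minus wild type on the log2(signal + 15.3) scale, on which changes of dim probe sets come out too small, and the SE is that of the limma fit without a block unless stated. Of the 19 probe sets, 12 passed the filter on low signals, which kept the brighter 22518 of all probe sets; the other 7 belong to Nr4a2 and Nr4a3. A gene is represented by its brightest kept probe set where 1 value is given. Whether arrays of 1 group stem from separate animals is not in the labels, so errors and p-values cover the spread of these 4 samples, which may be technical, and the number of arrays limits the precision of every value.

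The arrays also differed by their number. Averaged as a geometric mean, 9 probe sets of control RNA added at hybridisation were brighter on the arrays numbered 2 than on those numbered 1, by 6.25-fold in the wild type and 6.09-fold in the knockout. Differences are therefore also given within the arrays numbered 1 and within those numbered 2, in this order. The median size of the difference between knockout and wild type over all kept probe sets was 0.23 within number 1 and 0.22 within number 2, and 90% of kept probe sets lay below 0.63 and 0.73. The single Furin probe set read 435.1 and 343.9 on the wild-type arrays and 391.4 and 446.9 on the knockout arrays; the labels do not give the deleted part, so it does not check the deletion. The T cell genes Cd3e, Cd3d, Cd3g and Cd4 were bright on all 4 arrays, with Cd4 between 2974.4 and 3432.4. The CD3 genes were brighter on the arrays numbered 2 in both groups. Cd3d read 9725.3 and 42640.1 on the wild-type arrays and 10550.5 and 42142.6 on the knockout arrays.

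Promoter sequences are shown for 5 of the 9 genes, from the RefSeq promoter table (build GRCm38.p6): Irf4, the member with the largest mean difference, and beside it the whole Nr4a family and Egr2. Windows on 1 chromosome were left out before genes with a window were counted, so a gene not shown can still have one. Egr1, Egr3, Myc and Cd69 are not shown. Each window runs from 250 bases before to 50 bases after a transcription start: chr13:30748983-30749282 (plus strand), chr2:57123954-57124253 (minus strand), chr15:101266596-101266895 (plus strand), chr4:48045055-48045354 (plus strand) and chr10:67537619-67537918 (plus strand, 1 of 5 listed for Egr2, chosen as the window with the most motif matches). Capitals mark TGACG on either strand, the core of the cAMP response element bound by CREB and related factors, and the serum response element known as the CArG box, which is bound by SRF.
Irf4: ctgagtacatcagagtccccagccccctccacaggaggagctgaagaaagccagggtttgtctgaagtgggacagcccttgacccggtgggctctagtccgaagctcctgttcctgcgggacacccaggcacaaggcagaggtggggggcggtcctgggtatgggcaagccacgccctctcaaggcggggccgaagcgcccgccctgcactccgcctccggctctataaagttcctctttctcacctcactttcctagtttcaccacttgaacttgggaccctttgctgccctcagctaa
Nr4a2: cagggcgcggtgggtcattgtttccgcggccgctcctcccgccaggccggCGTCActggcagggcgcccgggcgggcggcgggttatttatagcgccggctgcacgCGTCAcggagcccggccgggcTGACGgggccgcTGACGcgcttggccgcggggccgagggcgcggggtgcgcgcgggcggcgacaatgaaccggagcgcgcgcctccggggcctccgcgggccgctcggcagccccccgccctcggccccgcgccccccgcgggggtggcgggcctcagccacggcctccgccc
Nr4a1: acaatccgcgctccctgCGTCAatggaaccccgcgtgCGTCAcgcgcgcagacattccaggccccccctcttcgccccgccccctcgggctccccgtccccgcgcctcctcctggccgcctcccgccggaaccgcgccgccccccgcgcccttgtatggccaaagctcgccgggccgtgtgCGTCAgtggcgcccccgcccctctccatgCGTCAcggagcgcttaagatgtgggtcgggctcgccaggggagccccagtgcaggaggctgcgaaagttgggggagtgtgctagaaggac
Nr4a3: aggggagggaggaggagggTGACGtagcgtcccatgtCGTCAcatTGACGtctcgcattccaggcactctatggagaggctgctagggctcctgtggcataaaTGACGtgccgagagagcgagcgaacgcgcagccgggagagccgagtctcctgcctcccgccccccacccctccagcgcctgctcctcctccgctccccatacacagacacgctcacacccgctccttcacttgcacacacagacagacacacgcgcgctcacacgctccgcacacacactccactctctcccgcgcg
Egr2: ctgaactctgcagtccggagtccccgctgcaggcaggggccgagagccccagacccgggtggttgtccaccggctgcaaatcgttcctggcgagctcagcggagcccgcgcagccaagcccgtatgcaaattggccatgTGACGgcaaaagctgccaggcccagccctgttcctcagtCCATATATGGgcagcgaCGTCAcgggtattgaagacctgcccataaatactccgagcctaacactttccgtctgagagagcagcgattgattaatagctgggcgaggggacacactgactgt

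All 3 Nr4a windows held 4 copies of TGACG, counted on both strands, where 20.8% of 32851 RefSeq mouse promoter windows held at least 1 copy and 0.231% held 4 or more. The windows of 1 gene can overlap in that background. The Egr2 window held 2 copies of TGACG and 1 CArG box, a motif present in 1.63% of all windows. It was chosen from 5 by its matches to these motifs, tied with others, so these shares do not apply to it. Another of the 5 Egr2 windows held 0 matches to both motifs. The Irf4 window held neither. None of the 5 windows held TGANTCA, which covers the AP-1 site and is in 7.81% of all windows, GCGTGGGCG, the Egr site, in 0.612%, or AAAGGTCA, the Nr4a site, in 1.51%, all searched on both strands. These are matches of letters in short windows.

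Irf4, which cooperates with BATF in activated T cells and is also needed for plasma cells, was the member with the largest mean difference. Its brightest probe set, 1421173_at, read 314.9 and 169.4 on wild-type arrays 1 and 2 and 550.6 and 375.2 on knockout arrays 1 and 2. Both knockout arrays lay above both wild-type arrays, and mean signals were 242.2 ± 102.9 (SD, n = 2) and 462.9 ± 124.0 (SD, n = 2), a ratio of 1.91. The difference was 0.93 (SE 0.45, or 0.20 with the array number as a block), at 0.78 within number 1 and 1.08 within number 2. It was larger in size than 94.6% of kept probe sets within number 1 and 96.1% within number 2.

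The second kept Irf4 probe set, 1421174_at, was dimmer and disagreed. It read 32.2 and 109.3 on the wild-type arrays and 44.2 and 82.4 on the knockout arrays, so the groups overlapped. Its difference was -0.013 (SE 0.60), at 0.32 within number 1 and -0.35 within number 2. With the mean of both probe sets Irf4 was higher by 0.46.

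**Figure D1:**
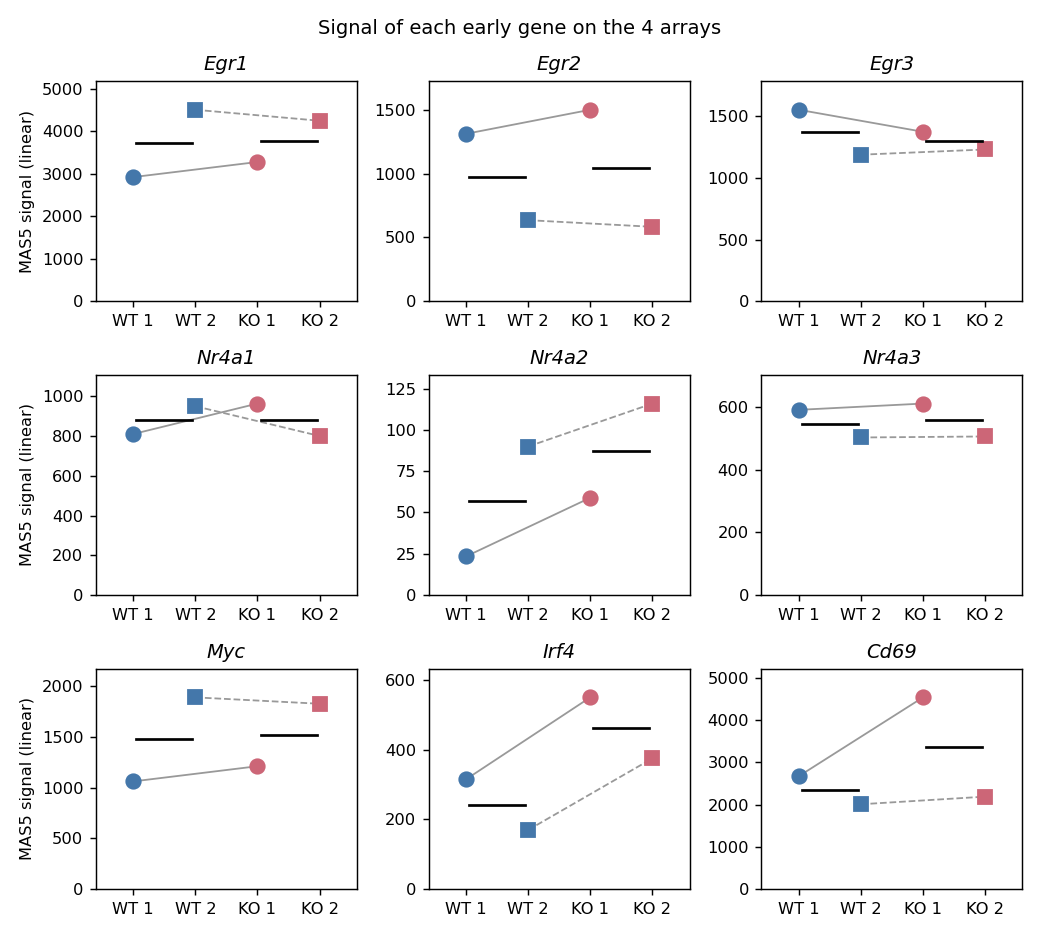
MAS5 signal (linear axes from 0) of the 9 early genes on each array, brightest kept probe set per gene. Circles are arrays numbered 1, squares arrays numbered 2, blue is wild type (WT) and red is knockout (KO); horizontal bars are group means of 2 arrays and grey lines join arrays of the same number. Irf4 is the panel in which both knockout arrays (550.6 and 375.2) lie above both wild-type arrays (314.9 and 169.4).

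Markers of other cell types, among them B and plasma cells, which express Irf4, were uneven between these arrays. The samples are bulk RNA, in which fewer cells of a type and less RNA per cell cannot be told apart. Of 13 measured B cell markers, 10 were higher and 0 were lower in the knockout array of both numbers, and their summed signal was 1336.9 and 5337.3 on the wild-type arrays against 1846.4 and 18141.4 on the knockout arrays. Of 6 plasma cell markers 3 were higher and 0 lower, with sums of 5967.4 and 3600.6 against 6095.6 and 6364. Of 16 myeloid markers 12 were higher and 0 lower, with sums of 13493.8 and 19147.8 against 13749.9 and 32285.8. Of 7 CD8 T and NK cell markers 4 were higher and 1 lower, with sums of 2646.5 and 2814.2 against 3257.4 and 3294.8. Of 9 T cell markers 0 were higher and 4 lower, with sums of 76139.8 and 142729 against 70914.6 and 135280. Beside these counts, 27.7% of the 10211 genes with a kept probe set were higher and 27.2% lower in the knockout array of both numbers. No marker of these lists was at or below 15.3 on all 4 arrays. The part of these cells in the Irf4 difference was not tested. The Irf4 difference was 0.78 within number 1 and 1.08 within number 2, and the gaps in the summed B cell, plasma cell and myeloid signals were also larger within number 2. From number 1 to number 2 the signal of Irf4 1421173_at fell in both genotypes, while the B cell and myeloid sums rose in both. The plasma cell sum fell in the wild type and rose in the knockout.

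The 2 brightest markers of each list are given first. Cd74, the MHC class II invariant chain, differed by 0.95 and 2.14 within numbers 1 and 2, and H2-Aa, an MHC class II chain, by 0.82 and 1.92. Xbp1, a transcription factor of secretory cells, differed by 0.25 and -0.09 and Jchain, the joining chain of secreted antibodies, by -0.56 and 3.50. The brightest myeloid markers, the protease Ctss and the protease inhibitor Cst3, differed by -0.07 and 0.20 and by 0.40 and 0.34. Ctss made up most of the myeloid sum on every array, at 11788.7 of 13493.8 on wild-type array 1. Over the 14 kept myeloid markers the median difference was larger, at 0.71 and 1.93 within the numbers. Ngp of this list differed by 1.84 and 3.23, with groups that did not overlap. S100a8 read 32 and 292.2 on the wild-type arrays and 118.7 and 3468.2 on the knockout arrays, with overlapping groups. Of the T cell list, Cd3d differed by 0.12 and -0.017 and Il7r, the interleukin 7 receptor, by -0.26 and -0.29. In the list of CD8 T and NK cell markers, Klrd1, a killer lectin-like receptor, differed by 0.040 and -0.094 and Cd8b1, a CD8 chain, by 0.32 and 0.018. In the same list the granzyme gene Gzma differed by 1.35 and 2.21 and Nkg7, of cytotoxic granules, by 0.96 and 1.49, both with groups that did not overlap.

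Nr4a2 was the dimmest member. Its only kept probe set, 1450749_a_at, read 23.4 and 89.9 on the wild-type arrays and 58.9 and 115.9 on the knockout arrays. The groups overlapped, since wild-type array 2 read above knockout array 1, although within each number the knockout array was brighter. The difference was 0.63 (SE 0.62, or 0.23 with the block), at 0.94 and 0.32 within the numbers. It was 0.35 with 66.6 added to each signal and 0.83 with 1 added, so its size depends on the treatment of low signals.

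The 5 other Nr4a2 probe sets did not pass the filter. Of all 6, 4 were higher in the knockout array of both numbers, and 2 of these, 1447863_s_at and 1455034_at, had groups that did not overlap. Over all 45037 probe sets 25.7% were higher and 26.8% lower in both numbers, and 10.9% were apart in each direction. Probe set 1447863_s_at read 40 and 52.7 on the wild-type arrays and 68.7 and 78.9 on the knockout arrays. Probe set 1455034_at read 32.6 and 30.5 against 70 and 39.9, and 1450750_a_at read 30.7 and 60.3 against 56.6 and 91.2. Their differences were 0.54, 0.55 and 0.57. The 2 probe sets 1433422_at and 1433423_at went opposite ways in the numbers, at 0.49 and -0.74 and at 0.41 and -0.67. The Nr4a2 signals reached at most 115.9, in the dim part of the array, and detection calls were not used here. The mean over all 6 probe sets was 0.34.

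Nr4a1, also known as Nur77, was level between the groups in the mean and went opposite ways in the numbers. It read 809.5 and 949.3 on the wild-type arrays and 962.6 and 799.6 on the knockout arrays. Mean signals were 879.4 ± 98.9 (SD, n = 2) and 881.1 ± 115.3 (SD, n = 2). The difference was 0.0012 (SE 0.34, or 0.21 with the block), or -0.0037 with each array centred on its median, at 0.25 within number 1 and -0.24 within number 2, both close to the median size over all kept probe sets.

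Nr4a3, whose protein binds the same response element as Nr4a1, had the smallest within-number differences of the 9 representative probe sets. Probe set 1438796_at read 590.1 and 502.1 on the wild-type arrays and 610.1 and 505.3 on the knockout arrays. The difference was 0.028 (SE 0.34, or 0.19 with the block), at 0.047 and 0.0089 within the numbers. The 2 other probe sets of Nr4a3 were dim and did not pass the filter. Probe set 1421079_at read 30 and 4.2 against 3.1 and 28.9, and 1421080_at read 11.1 and 21 against 15 and 26.4. The knockout arrays did not lie above the wild-type arrays for any of the 3.

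**Figure D2:**
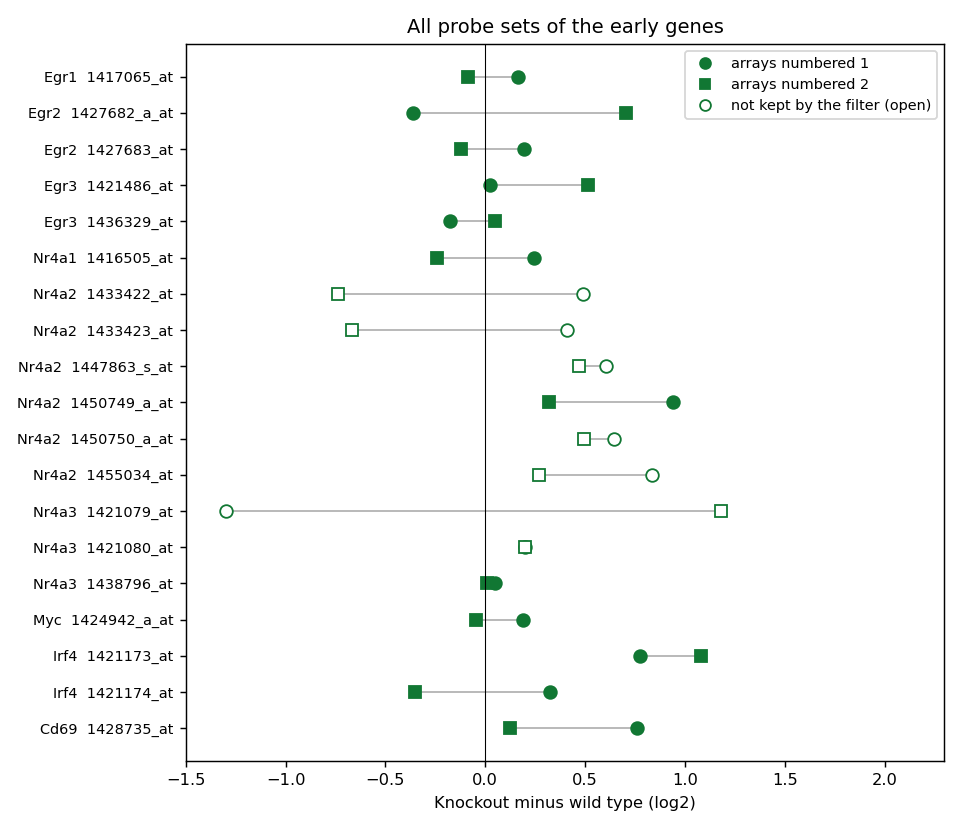
Knockout minus wild type (log2 of signal + 15.3) within arrays numbered 1 (circles) and numbered 2 (squares) for all 19 probe sets of the 9 genes; filled symbols passed the filter on low signals, open symbols did not, and a grey line joins both values of a probe set. Irf4 1421173_at lies at 0.78 and 1.08, and of the probe sets of Nr4a2, 4 of 6 have both values above 0.

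Egr1, a zinc finger factor induced through SRF, was bright and did not separate the groups. It read 2925.6 and 4511.7 on the wild-type arrays and 3281.7 and 4252.9 on the knockout arrays, so the arrays ordered by number and not by genotype. Mean signals were 3719 ± 1122 (SD, n = 2) and 3767 ± 687 (SD, n = 2). The difference was 0.040 (SE 0.39, or 0.19 with the block), at 0.16 and -0.085 within the numbers.

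Egr2 and Egr3, which restrain T cell activation and are known from anergic cells, had 2 kept probe sets each. The brighter Egr2 probe set, 1427683_at, read 1311.8 and 635.6 on the wild-type arrays and 1500.2 and 583.4 on the knockout arrays, a difference of 0.035 (SE 0.63, or 0.20 with the block). The other, 1427682_a_at, read 618.8 and 245.3 against 477.4 and 409.3, with within-number differences of -0.36 and 0.70. Both probe sets overlapped between the groups, and they went opposite ways within each number.

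The brighter Egr3 probe set, 1436329_at, read 1551.6 and 1187.6 on the wild-type arrays and 1373.1 and 1230 on the knockout arrays, a difference of -0.062 (SE 0.34, or 0.19 with the block). The dimmer one, 1421486_at, read 60.5 and 94.3 against 61.8 and 141.3, with within-number differences of 0.025 and 0.51. The mean of both probe sets gave 0.10, so the sign of the Egr3 value depends on the probe set.

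Myc read 1061.2 and 1890.9 on the wild-type arrays and 1211.3 and 1828 on the knockout arrays. As for Egr1, both arrays numbered 2 lay above both numbered 1. The difference was 0.070 (SE 0.45, or 0.19 with the block), at 0.19 and -0.049 within the numbers.

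Cd69 read 2673 and 2007.8 on the wild-type arrays and 4543.5 and 2188.9 on the knockout arrays. Knockout array 1 stood above the other 3, while knockout array 2 lay between the wild-type arrays. Mean signals were 2340 ± 470.4 (SD, n = 2) and 3366 ± 1665 (SD, n = 2), a ratio of 1.44. The difference was 0.44 (SE 0.48, or 0.23 with the block), at 0.76 within number 1, larger in size than 94.2% of kept probe sets, and 0.12 within number 2, larger than 30.8%. Without knockout array 1 it was -0.081, and without knockout array 2 it was 0.97.

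Counted over genes, 4 of the 9 representative probe sets (Irf4, Nr4a2, Nr4a3 and Cd69) were higher in the knockout array of both numbers and 0 were lower, where 27.7% of 10211 genes were higher and 27.2% lower. Groups did not overlap for Irf4 alone, where 8.69% of all genes were apart with the knockout higher and 8% with it lower. The median difference of the 9 genes was 0.040, beside -0.0017 over all genes. Because the genes were chosen on this comparison, nothing is read from these counts.

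**Figure D3:**
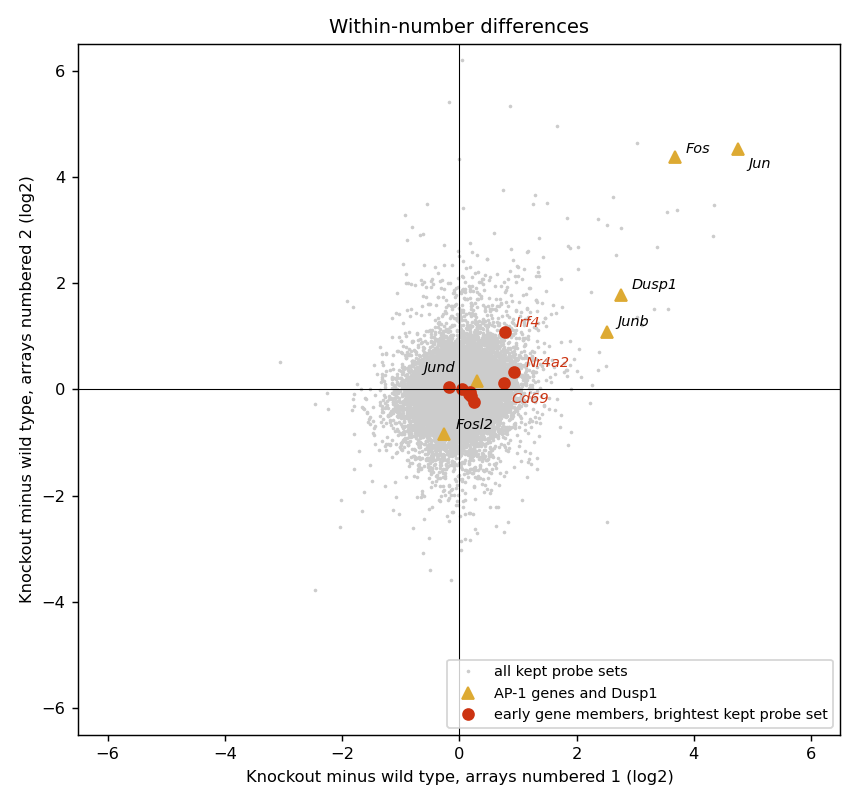
Knockout minus wild type (log2 of signal + 15.3) within arrays numbered 1 (x axis) and within arrays numbered 2 (y axis) for all 22518 kept probe sets (grey), the 9 early genes (red circles) and the AP-1 genes with Dusp1 (yellow triangles). Irf4 lies at 0.78 and 1.08, 6 of the 9 early genes lie within 0.25 of 0 on both axes, and Jun lies at 4.74 and 4.51.

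The difference between arrays numbered 2 and numbered 1 was not used to choose the genes and could be tested, in a limma fit with genotype and array number over all kept probe sets. Of the 12 kept probe sets, 6 differed at a Benjamini-Hochberg adjusted p of 0.05, 4 higher and 2 lower on arrays numbered 2. Over all kept probe sets 34.6% differed, 19.5% higher and 15.1% lower. With no filter on low signals 0 of the 19 probe sets were called. Egr2 1427683_at was lower on arrays numbered 2 by 1.18 (log2 difference -1.18, SE 0.20, limma adjusted p = 0.0114), in the same direction in both genotypes. Nr4a2 1450749_a_at was higher by 1.13 (SE 0.23, limma adjusted p = 0.0180) and Myc by 0.71 (SE 0.19, limma adjusted p = 0.0403).

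The kept probe sets of Irf4 and of Egr3 did not move together between the array numbers. Both kept Egr2 probe sets were lower on arrays numbered 2, with 1427682_a_at at -0.75 (SE 0.29, limma adjusted p = 0.101). Irf4 1421174_at was higher on arrays numbered 2 by 1.05 (SE 0.24, limma adjusted p = 0.0235), while Irf4 1421173_at differed by -0.69 (SE 0.20, limma adjusted p = 0.0459). Egr3 1421486_at was higher by 0.78 (SE 0.21, limma adjusted p = 0.0408), and the brighter Egr3 1436329_at differed by -0.27 (SE 0.19, limma adjusted p = 0.312). At the representative probe sets the array number difference was larger in size than the genotype difference for every gene but Irf4. For Egr1, Egr2, Myc and Nr4a2 it was larger by more than 0.4, at 1.13 against 0.63 for Nr4a2. For Irf4 1421173_at the genotype difference, 0.93, was the larger. The gap in the control probe sets goes with the same numbers, and its part in these differences was not tested.

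**Figure D4:**
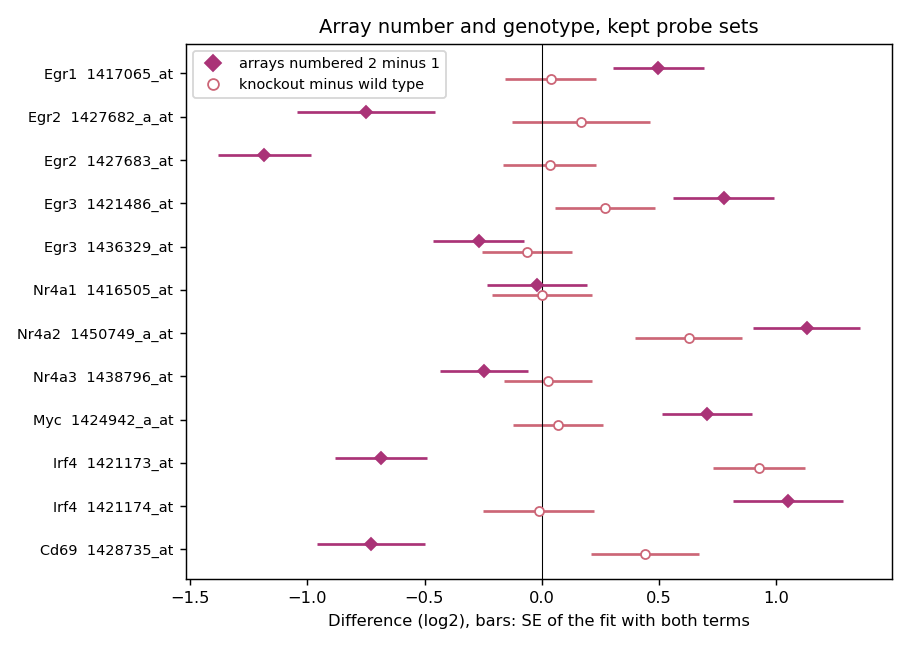
Log2 differences of the 12 kept probe sets between arrays numbered 2 and 1 (diamonds) and between knockout and wild type (open circles), with bars of 1 SE from the limma fit with both terms. The diamonds run from -1.18 for Egr2 1427683_at to 1.13 for Nr4a2 1450749_a_at, and the circles from -0.062 for Egr3 1436329_at to 0.93 for Irf4 1421173_at.

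The other genes of the pathway were counted from lists in the same fits, adjusted over all 22518 kept probe sets. Over 114 other pathway genes with a kept probe set, limma called 0 without the block, where 0% of all kept probe sets were called. At an unadjusted limma p under 0.05 were 7 of their 229 probe sets, beside 145 of all 22518 kept probe sets. The lists were chosen with earlier results of these data known, so nothing is read from these counts. With the block it called 2 genes, Jun and Fos, both higher, where 0.0266% of all kept probe sets were called as higher. Once the prior variance was also allowed to follow the mean signal (a trended prior), it called 8 genes, all higher, where 0.795% of all kept probe sets were called as higher and 0.36% as lower: Jun, Fos, Junb, Dusp1, Ppp1r15a, Ier2, Irf8 and Irf1. Of the 114, 32 were higher in both numbers and 28 were lower, which is 28.1% and 24.6% beside the 27.7% and 27.2% of all genes, and their median difference was close to 0 (4e-06).

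AP-1 subunits, which are induced beside Egr and Nr4a genes, stood furthest out. Jun read 232.7 and 238.9 on the wild-type arrays and 6632 and 5795 on the knockout arrays, and rose by 4.63 with the block (SE 0.19, limma adjusted p = 0.0204; adjusted p = 0.888 without the block). Fos read 873.5 and 374.2 against 11334 and 8045, and rose by 4.02 with the block (SE 0.24, limma adjusted p = 0.0345; close to 1 without the block). Dusp1, a phosphatase of MAP kinases, differed by 2.76 and 1.78 within the numbers and passed with the block only under the trended prior (limma adjusted p = 1.43e-08, beside 0.222 under the plain prior). Of the 6 kept genes of this list, 5 were higher in both numbers and 1, Fosl2, was lower. Against these values the Egr1 difference was 0.040 and the Nr4a1 difference 0.0012; a difference between genes was not tested.

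**Figure D5:**
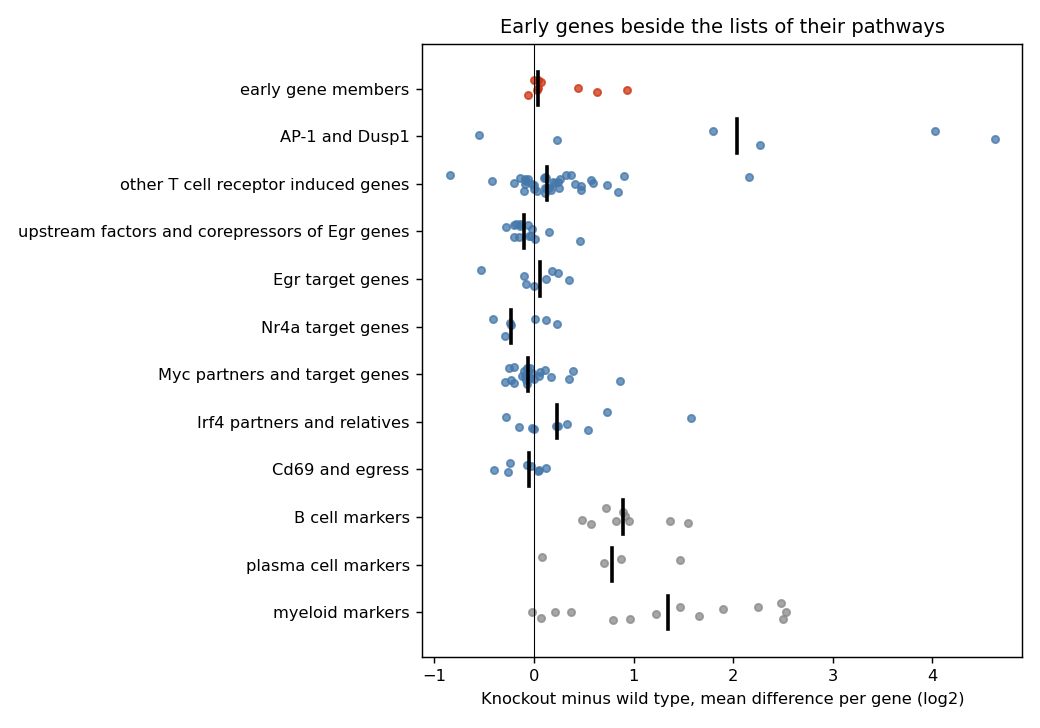
Mean log2 difference per gene, knockout minus wild type, for the 9 early genes (red), the genes of 8 pathway lists (blue) and markers of other cell types (grey), with vertical bars at list medians; points are spread vertically only for visibility. The median is 0.040 for the early genes, 2.04 for the AP-1 genes with Dusp1 and 1.35 for the myeloid markers.

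Among 37 other genes known to be induced through the T cell receptor, 11 were higher and 5 lower in both numbers, with a median of 0.13 (0.075 and 0.22 within the numbers), and 7 had groups apart with the knockout higher and 2 with it lower, beside 8.69% and 8% of all genes. limma called 0 with or without the block, and 2 higher, Ppp1r15a (adjusted p = 4.72e-06) and Ier2 (adjusted p = 0.0232), with the block and a trended prior. The largest differences with groups apart were those of Ppp1r15a, a stress-induced regulator of translation, Crtam, an activation-induced adhesion receptor, and Phlda1. Ppp1r15a read 490.2 and 625.5 on the wild-type arrays and 4364 and 1462 on the knockout arrays, a difference of 2.16 (SE 0.61). Crtam read 321.7 and 271.6 against 129.5 and 190.8, a difference of -0.85 (SE 0.36). Phlda1 was at 0.84 (SE 0.47). The cytokine genes Il2 and Ifng did not pass the filter on low signals. Ifng read 16.8 and 4.9 on the wild-type arrays and 83.2 and 48.6 on the knockout arrays, at 1.62 and 1.66 within the numbers. Il2 read 8.1 and 5 against 1.8 and 28, at -0.45 and 1.09. Egr4 did not pass it either and read 42.3 and 82.1 against 9.9 and 13.2, at -1.19 and -1.77. Groups were apart for Ifng and Egr4, in opposite directions, beside 10.9% of all probe sets in each direction.

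Of 14 upstream factors and corepressors of Egr genes, 2 were higher and 6 lower in both numbers, with a median of -0.10 and no gene with groups apart. This list holds Srf, Elk1, Elk4, the NFAT and MEF2 factors and the NAB corepressors; none passed. Of 8 genes known as Egr targets, 2 were higher and 2 lower in both numbers, with a median of 0.059. Of 7 genes linked to Nr4a factors, among them Foxp3, Ikzf2 and Tox, 0 were higher and 4 lower, with a median of -0.23 (-0.38 and -0.091 within the numbers). None of these genes passed limma with or without the block, and none had groups that did not overlap.

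Of 26 Myc partners and targets, 6 were higher and 7 lower in both numbers, with a median of -0.065. Hk2, a glycolytic enzyme, differed by 0.86 (SE 0.52, at 0.23 and 1.5 within the numbers), Mxd4, a repressor that competes with Myc for Max, by 0.35 (SE 0.32), and Mlx, a partner of the Mxd proteins, by -0.23 (SE 0.32). Of 8 genes tied to Cd69 and to egress from lymphoid tissue, 2 were higher and 2 lower in both numbers, with a median of -0.051. Foxo1, which maintains homing receptors of naive cells, differed by -0.40 (SE 0.34, at -0.45 and -0.36), and S1pr4, a sphingosine phosphate receptor, by 0.049 (SE 0.32). None of these passed.

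Of 10 partners and relatives of Irf4, 5 were higher and 1 lower in both numbers, with a median of 0.23. Irf8, a close relative expressed in B and myeloid cells, read 173.5 and 129.6 on the wild-type arrays and 382.7 and 598.3 on the knockout arrays, a difference of 1.58 (SE 0.39, at 1.08 and 2.08). Irf1, an interferon-induced relative, read 8051 and 5903 against 10036 and 10080.5, a difference of 0.54 (SE 0.35, at 0.32 and 0.77). Both had groups that did not overlap, and neither passed limma without the block or with it, while adding a trended prior to the block brought both past it (limma adjusted p = 0.000891 for Irf8 and 0.0243 for Irf1). The gaps in the B cell and myeloid sums given beside Irf4 were also larger within number 2. From wild-type array 1 to wild-type array 2 those sums rose, while Irf8 and Irf1 fell. From knockout array 1 to knockout array 2 those sums rose and so did Irf8, with Irf1 nearly level at 10036 and 10080.5. The part of these cells was not tested.

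Genes with the most similar pattern over the 4 arrays were sought among 10202 other genes by the Euclidean distance of mean-centred log2 values. Closest to Irf4, the member whose smaller within-number difference was largest, were 1600014C10Rik at a distance of 0.070, Cd200r4, a receptor of the CD200R family, at 0.17 and Gbp6, a guanylate-binding protein, at 0.18. Gbp6 differed by 0.91 and 1.03 within the numbers. Closest to Nr4a3, the member whose within-number differences were smallest in size, were Kpna4, an importin, at 0.015, Srp72, of the signal recognition particle, at 0.021 and 4930456A14Rik at 0.025. With 4 arrays and so many genes, close patterns are common, and the distance is a description.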

How the data were processed

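The authors deposited intensity values on a linear scale, 1 per probe set and array, made with MAS5 per the submitters' processing notes; version, settings and detection calls are not given in these sources. Every array has a mean of 500.003 once the lowest and highest 2% of its values are dropped. From 45101 probe sets 64 controls were left out. Of the other 45037, 34945 had 1 gene symbol, updated through Entrez identifiers in a RefSeq table of GRCm38.p6 where possible, 932 had several and 9160 none. The constant 15.3 is the 25% quantile of all values, and probe sets above the median of mean log2 values (6.24) were kept, 22518 in all, for 10211 genes. The comparison used lmFit and eBayes of limma 3.58.1 (R 4.3.3, two-sided, Benjamini-Hochberg) and no block; deviations of same-numbered arrays from group means correlated at 0.80, and the labels give no shared animal or day, so the number was handled as a possible batch. The fits were run on simulated data with known differences, where only the direction and median error of the differences had to pass. No limit was set on missed or false calls, so that run does not bear on the numbers called. The members and lists were chosen with earlier results of these data known. Named from the lists were genes past 0.05, up to 3 per list of the largest difference with groups apart, the 2 brightest markers per marker list, and the genes of most similar pattern. Junb, Ier2, Gzma, Nkg7, Ngp, S100a8, Fosl2, Srf, Elk1, Elk4, Foxp3, Ikzf2, Tox, Il2, Ifng, Egr4 and the T cell genes of the array check were named outside this rule.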

Additional observations from a re-analysis of the deposited data

How the results depend on the processing

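Alternatives covered the constant added to the signals, the filter, quantile normalization, median centring, a trended prior, the array number as a block and each array left out. Without the block limma called 0 probe sets in every setting run, also with each array left out (0 to 0), both over all probe sets and over the other pathway genes. With the array number as a replicate block it called 6 over all and 3 among the 229 probe sets of other pathway genes, and 260 and 12 once a trended prior was added to the block, with 1 residual degree of freedom left. Of the 12 kept member probe sets, 6 differed by array number; this was 0 with no filter and 3 with no genotype term, and 4 to 8 in the other settings. With 1 array left out that fit has no residual degrees of freedom and was not run.

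Dropping any array leaves genotype and array number unbalanced. Irf4 then ranged from 0.51 without wild-type replicate 2 to 1.35 without wild-type replicate 1, Nr4a2 from -0.093 without wild-type replicate 1 to 1.35 without wild-type replicate 2, and Cd69 from -0.081 to 0.97. The other 6 genes each took both signs: Egr1 from -0.27 to 0.35, Egr2 from -0.63 to 0.71, Egr3 from -0.25 to 0.13, Nr4a1 from -0.13 to 0.13, Nr4a3 from -0.10 to 0.16 and Myc from -0.34 to 0.48. Quantile normalization and median centring moved the median of all kept probe sets from -0.022 to -0.0064 and -0.027, and turned 1 member, Nr4a1, from 0.0012 to -0.0037 under median centring. Signals near 15.3 limit the Nr4a2 and Nr4a3 probe sets that did not pass the filter.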
